A study of Drosophila melanogaster with 4 samples.

Results

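Glial cells were sought among Drosophila cells sorted for GFP, by asking which of them carried RNA of repo (FBgn0011701, chromosome 3R, 18236192 to 18239602, plus strand, dm6), the homeodomain factor that marks nearly all glia of the fly outside the midline. A kept cell had 200 to 6000 detected genes and at most 5% of its unique molecular identifiers (UMIs, each one captured transcript) from mitochondrial genes. Repo-positive cells were selected on their own UMI counts of 3 genes. Each was a kept cell with at least 1 repo UMI and no UMI of deadpan (dpn) or worniu (wor), which mark neural stem cells (NSCs). There were 95 repo-positive cells among 3567 kept cells. Cells at 24 h after larval hatching (24 h ALH), when NSCs have reactivated, were set against cells of embryonic stage 17, when most NSCs are quiescent. Each stage had 2 libraries, labelled as biological replicates. The labels give brain as the tissue of all 4, whereas the study's methods name embryos as the material dissociated at stage 17 and larval brains at 24 h ALH, so the stages may differ in tissue source as well. All 4 libraries carried the same transgenes, wor-GAL4 and UAS-mCD8-GFP, and no genotype or treatment differed between them. The worniu driver is active in NSCs and GFP passes to their progeny, so glia were not the intended target of the sort, and a repo-positive cell had to be GFP-positive to be captured. Stage 17 library 1 used version 2 of the 10x 3′ chemistry whereas version 3 was used for the other 3, so that within stage 17 the replicate and the chemistry cannot be told apart.

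Insect glia insulate, feed and clean up after neurons. Perineurial and subperineurial glia form the blood-brain barrier at the surface, and the subperineurial layer is sealed by septate junctions. Cortex glia wrap NSCs and neuronal cell bodies, ensheathing glia bound the neuropil, and astrocyte-like glia enter it and take up transmitter. At the larval stages surface and cortex glia form the niche of the NSCs and release signals such as insulin-like peptides to them.

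The 4 libraries differed in depth, with 53458971 and 33037729 UMIs at 24 h ALH against 2219533 and 15290553 UMIs at stage 17. Stage 17 library 2 stood apart from the other 3, since neuronal RNA was found in nearly all of its cells, whatever else they carried. Of the kept cells that were not repo-positive, 74.6% and 62.8% in the 24 h ALH libraries held fewer than 100 UMIs of neuronal genes per 10000, against 23.8% in stage 17 library 1 and 8.34% in stage 17 library 2. There were 12 cell barcodes shared between 24 h ALH library 1 and stage 17 library 2, and 1 between 24 h ALH library 2 and stage 17 library 2, and no repo-positive cell was among them. Scrublet called 42 kept cells as doublets, none of them repo-positive.

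The repo-positive cells were first described with 5 glial markers. The choice of cells had not used them, but they were proposed with earlier results of these data known. Their levels are therefore a description and no independent test of identity. The 5 were Gs2 (glutamine synthetase), Eaat1 (a glutamate transporter), Gat (a GABA transporter), Obp44a (an odorant-binding protein made in glia) and nrv2 (a sodium pump subunit). Cells with at least 2 repo UMIs held the 5 markers at 471 and 258 UMIs per 10000 in the 24 h ALH libraries and at 159 and 423 in stage 17 libraries 1 and 2. The kept cells without repo, dpn and wor held 9.22 and 12.1 UMIs per 10000 at 24 h ALH and 21.4 and 32.1 at stage 17. Cell by cell, the lowest, median and highest values of the cells with at least 2 repo UMIs were 0.450, 116 and 1457 in 24 h ALH library 1 and 6.13, 79.1 and 1708 in library 2, and 3.51, 137 and 868 in stage 17 library 1 and 15.4, 126 and 2323 in library 2. Of these cells 6 of 7 and 10 of 12 at 24 h ALH, and 8 of 10 and 8 of 9 at stage 17, were at or above the pooled level of cells without repo.

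The cells just inside the limit, with exactly 1 repo UMI, did not all carry the label. They numbered 6 and 7 at 24 h ALH and 8 and 36 at stage 17. Pooled, their 5 markers reached 532 and 580 UMIs per 10000 in 24 h ALH libraries 1 and 2 and 325 in stage 17 library 1, but these values came from part of the cells. The lowest, median and highest were 3.41, 4.47 and 1966 in 24 h ALH library 1, 0, 371 and 2149 in library 2, and 6.67, 68.5 and 730 in stage 17 library 1. Below the pooled level of cells without repo lay 4 of 6 and 3 of 7 of these cells at 24 h ALH and 1 of 8 in stage 17 library 1. In stage 17 library 2 the 36 cells held 35.9 UMIs per 10000 pooled, close to the 32.1 of cells without repo, with a lowest, median and highest of 5.99, 51.2 and 108, and nSyb (neuronal Synaptobrevin, a vesicle fusion protein) was found in all 36. Since cells without glial marker levels were found in every library, the cells are called repo-positive rather than glial from here on. Just outside the limit, 199 kept cells without repo held 4 or 5 of the other markers, of which 160 were in stage 17 library 2. Another 17 kept cells carried repo with dpn or wor, 5 and 4 at 24 h ALH and 0 and 8 at stage 17, and were not counted as repo-positive.

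Repo-positive cells were few at both stages. They made up 13 of 923 kept cells (1.41%, exact 95% binomial interval 0.752 to 2.40%) and 19 of 1015 (1.87%, 1.13 to 2.91%) at 24 h ALH, against 18 of 409 (4.40%, 2.63 to 6.87%) and 45 of 1220 (3.69%, 2.70 to 4.90%) at stage 17. The groups did not overlap, but 2 libraries against 2 cannot give an exact permutation p below 0.333. These intervals cover counting error only. At 2 or more repo UMIs the shares were 0.758% and 1.18% at 24 h ALH, against 2.44% and 0.738% at stage 17, and the groups overlapped. When repo, dpn and wor were read after drawing 1000 UMIs from each cell, 2 and 3 cells at 24 h ALH and 4 and 7 cells at stage 17 met the rule. The median repo-positive cell had 21156 and 12901 UMIs at 24 h ALH against 8398 and 5446 at stage 17, while the median of the other kept cells was 49490 and 18092 against 3720 and 4826. Repo-positive cells were shallower than other cells at 24 h ALH and deeper at stage 17.

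To compare genes, UMIs were summed over the repo-positive cells and over the other kept cells of each library, giving 8 sums, and values are given as CPM, counts scaled to the TMM-adjusted size of each sum. Obp44a (chromosome 2R, 8134170 to 8135315, minus strand) was the most abundant marker. It stood at 49361 and 36536 CPM in repo-positive cells at 24 h ALH and at 9492 and 10633 CPM at stage 17, against 279 and 354 CPM in other cells at 24 h ALH and 604 and 2340 CPM at stage 17. Repo-positive cells were higher in all 4 libraries, and Obp44a rose by 5.14 ± 1.0 (log2 fold change ± SE; adjusted p = 0.0338, edgeR quasi-likelihood test with the library as a block). nrv2 stood at 2801 and 2307 CPM in repo-positive cells at 24 h ALH and 8065 and 3395 CPM at stage 17. In other cells nrv2 had 289 and 307 CPM at 24 h ALH and 742 and 915 CPM at stage 17, and the rise of 2.89 ± 0.34 passed the test (adjusted p = 0.0150, edgeR).

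The transmitter-handling markers were higher in repo-positive cells of every library without passing the test over all 7481 genes. Gs2 had 3062 and 399 CPM in repo-positive cells at 24 h ALH and 1238 and 219 CPM at stage 17, against 23.3 and 21.0 CPM and 194 and 69.2 CPM in other cells (log2 fold change 3.77 ± 0.91, edgeR adjusted p = 0.0578). The Gs2 level in 24 h ALH library 1 rested largely on a single cell, which held 504 of its 937 UMIs. Gat had 94.8 and 75.4 CPM in repo-positive cells at 24 h ALH and 593 and 46.5 CPM at stage 17, against 2.93 and 3.09 CPM and 89.3 and 27.3 CPM in other cells (3.30 ± 0.77, edgeR adjusted p = 0.0523). Eaat1 had 203 and 164 CPM in repo-positive cells at 24 h ALH and 300 and 193 CPM at stage 17, against 110 and 88.7 CPM and 49.6 and 64.5 CPM in other cells (1.47 ± 0.38, edgeR adjusted p = 0.0664). The smallest gap between the 2 kinds of cell was that of Gat in stage 17 library 2.

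**Figure D1:**
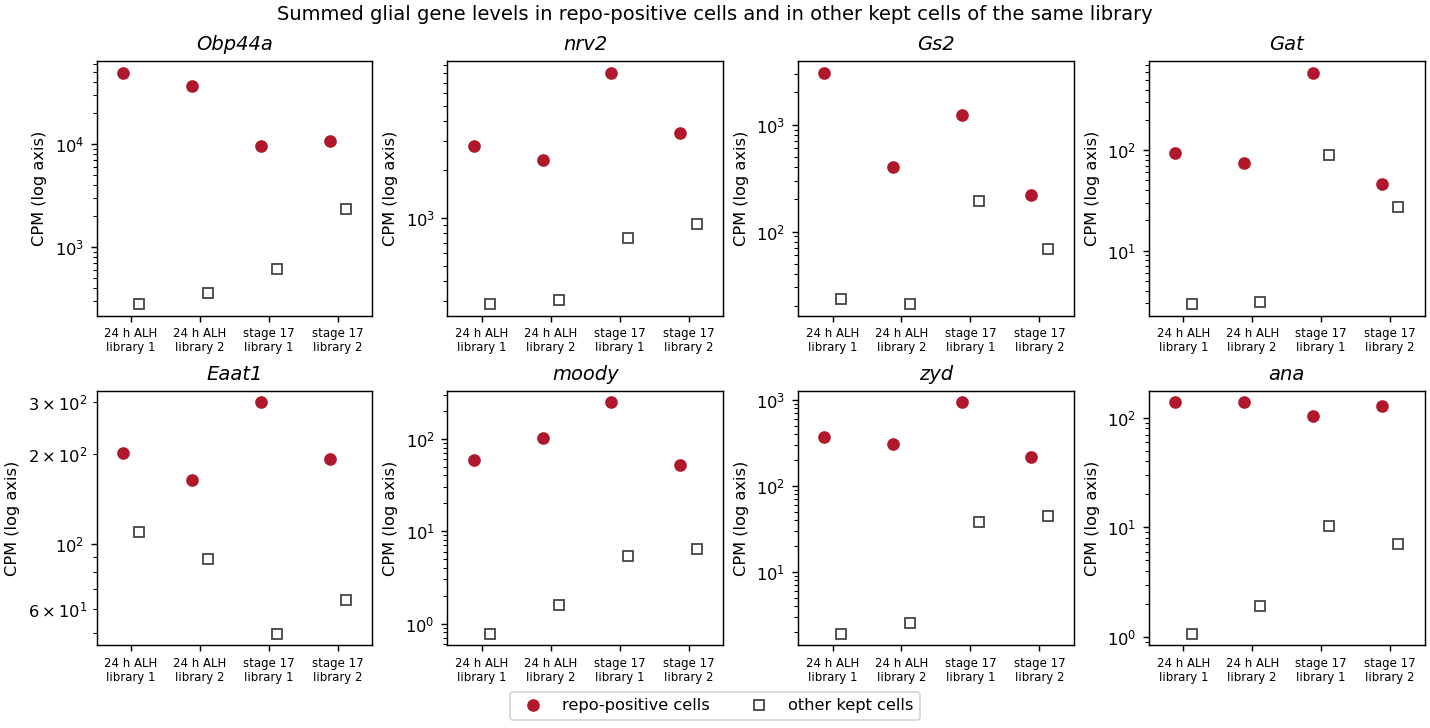
Summed level of 8 glial genes (CPM, log axis) in repo-positive cells (filled circles) and in other kept cells (open squares) of each library, 1 value per library and kind of cell. Repo-positive cells stood higher in all 4 libraries for each gene shown, with the narrowest gap for Gat in stage 17 library 2 (46.5 against 27.3 CPM).

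Across all genes, 306 of 7481 rose in repo-positive cells (4.09%) and 94 fell (1.26%) at an adjusted p under 0.05, and the median log2 fold change was -0.28. DESeq2 called 648 higher and 335 lower (65.9% higher, against 76.5% in edgeR). The edgeR count depended on single libraries. It was 400 genes in all, against 23 without stage 17 library 1, 722 without stage 17 library 2, and 717 and 659 without 24 h ALH libraries 1 and 2. The 23 calls held 22 of the 400 genes. Of 35 called markers, examples and named genes, 9 remained called without stage 17 library 1, nrv2 and ana among them, and the calls of Obp44a, moody, Mdr65, zyd, Cyp4g15, htl, GLaz, apolpp and loco given here were all lost. With at least 2 repo UMIs required, 1403 genes were called, 397 of the 400 among them, whereas cells with exactly 1 repo UMI gave 13 calls, a setting chosen after seeing the data.

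Most genes of the glial lists had values above zero, and each list passed the test in part only. Of the 5 markers tested, 2 rose and none fell, and their median log2 fold change was 3.30. Of 8 surface glia genes, 4 rose and none fell, with a median of 5.28 and all 8 above zero. Of 9 genes of ensheathing and cortex glia, 3 rose (median 3.0), and of 9 genes of astrocyte-like glia, 4 rose (median 3.74). Among septate junction genes 4 of 17 rose, and all 17 were above zero with a median of 2.07. No gene of these lists fell. The lists share genes, so their counts are not separate from one another. Obp44a was counted as a marker and with astrocyte-like glia, and nrv2 as a marker and with septate junctions. htl was counted with astrocyte-like and with ensheathing and cortex glia, and moody with surface glia and septate junctions. Over all 7481 genes, 306 rose, 94 fell and 2692 had values above zero.

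Surface glia were represented by the genes of the blood-brain barrier. moody, the receptor that organises the subperineurial barrier, had 58.8 and 102 CPM in repo-positive cells at 24 h ALH and 248 and 51.5 CPM at stage 17. In other cells it had 0.776 and 1.58 CPM at 24 h ALH and 5.41 and 6.33 CPM at stage 17. moody rose by 5.21 ± 0.64 (edgeR adjusted p = 0.0161). Mdr65, the drug efflux pump of the same layer, rose by 5.85 ± 0.87 (edgeR adjusted p = 0.0192). The perineurial genes Tret1-1, a trehalose transporter, and CG6126 did not pass the test over both stages (5.35 ± 1.66 and 4.94 ± 1.20, edgeR adjusted p = 0.103 and 0.0598). Tret1-1 stood at 516 and 306 CPM in repo-positive cells at 24 h ALH against 71.7 and 9.97 CPM at stage 17, where other cells had 4.51 and 9.03 CPM.

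Cortex glia genes were also present. zyd, a sodium/calcium exchanger of cortex glia, had 366 and 311 CPM in repo-positive cells at 24 h ALH and 938 and 218 CPM at stage 17, against 1.92 and 2.56 CPM and 38.3 and 44.8 CPM in other cells, and it rose by 5.44 ± 1.02 (edgeR adjusted p = 0.0320). Cyp4g15, a cytochrome P450 found in cortex glia, rose by 5.08 ± 0.94 (edgeR adjusted p = 0.0306). wrapper, an adhesion protein with which glia enwrap axons and cell bodies, had 346 and 209 CPM in repo-positive cells at 24 h ALH and 111 and 36.5 CPM at stage 17 without passing the test (5.53 ± 1.55, edgeR adjusted p = 0.0812). htl, an FGF receptor of several glial types, rose by 3.74 ± 0.56 (edgeR adjusted p = 0.0191). alrm, the marker most often used for astrocyte-like glia, gave only 17 UMIs in 12 repo-positive cells, and drpr, the engulfment receptor Draper, did not pass the test (0.67 ± 0.42, edgeR adjusted p = 0.345).

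Niche and metabolic genes of glia were raised in part. Over all genes 306 of 7481 rose (4.09%), with a median of -0.28. Among 14 niche signals 3 rose, with a median of 1.55. ana (anachronism), a secreted glial glycoprotein that holds NSCs in quiescence, had 137 and 138 CPM in repo-positive cells at 24 h ALH and 104.2 and 126 CPM at stage 17. Other cells had 1.08 and 1.94 CPM of ana at 24 h ALH and 10.4 and 7.09 CPM at stage 17, and the rise of 5.18 ± 0.71 passed the test (edgeR adjusted p = 0.0174). Ilp6, an insulin-like peptide that blood-brain barrier glia release to reactivate NSCs, rose by 3.36 ± 0.76 (edgeR adjusted p = 0.0452), from 20 UMIs in 11 cells. That call was lost without 24 h ALH library 1 or 2 (2.90 and 2.91, edgeR adjusted p = 0.0693 and 0.0536) and without stage 17 library 1 (3.32, edgeR adjusted p = 0.134). trol, the heparan sulphate proteoglycan perlecan, stood at 520 and 528 CPM in repo-positive cells at 24 h ALH and 358 and 158 CPM at stage 17 (4.12 ± 0.95, edgeR adjusted p = 0.0518). Of 12 genes of glial metabolism and lipid handling, 3 rose (median 2.12), among them GLaz, a glial lipocalin (3.27 ± 0.42, edgeR adjusted p = 0.0161), and apolpp, the apolipoprotein precursor of lipophorin (3.89 ± 0.76, edgeR adjusted p = 0.0343). Among 5 genes of glial fate only loco, a regulator of G-protein signalling downstream of gcm, rose (2.45 ± 0.50, edgeR adjusted p = 0.0350).

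The 10 largest rises that met the rule for named genes were mostly of genes outside these lists. They were CG42235 (kumpel), CG4797 (pippin), CG32032, CG3168, CG4721 (Nepl15, a neprilysin-like protein), CG10031, Mdr65, Vha36-3 (a subunit of the vacuolar proton pump), CG9686 and Irk3 (an inward rectifier potassium channel). Their log2 fold changes lay between 5.66 and 6.47. CG42235 had 114 and 177 CPM in repo-positive cells at 24 h ALH and 606 and 151 CPM at stage 17, against 0.129 and 0.690 CPM and 12.2 and 23.1 CPM in other cells. CG9686 was among the most abundant, with 4660 and 4690 CPM in repo-positive cells at 24 h ALH and 3746 and 1870 CPM at stage 17, against 15.3 and 28.9 CPM and 195 and 275 CPM in other cells. None of the 10 remained called without stage 17 library 1, and all 10 did without stage 17 library 2.

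Genes of NSCs and of the cell cycle are given as a description, since repo-positive cells were chosen to lack dpn and wor. Over all genes 94 of 7481 were lower past the threshold (1.26%), with a median of -0.28. Of 12 NSC genes 5 were lower past the threshold and none higher, with a median of -2.54. Of 15 cell cycle genes only PCNA and CycE were lower past the threshold and none higher, with a median of -1.70. mira, an adaptor for asymmetric division, had 0 and 4.44 CPM in repo-positive cells at 24 h ALH and 6.51 and 4.98 CPM at stage 17, against 336 and 250 CPM and 90.6 and 36.2 CPM in other cells. CycE, the cyclin of S-phase entry, gave 5 and 1 UMIs in repo-positive cells at 24 h ALH and none at stage 17. The other kept cells held 580 and 373 cells with both dpn and wor at 24 h ALH, against 33 and 41 at stage 17. Set against cells with nSyb instead, klu and the replication factor PCNA changed direction (0.52 and 1.57).

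Of the 10 largest falls, CG13041, CG13060, CG13059, CG13066 and CG13043 lay within one cluster on chromosome 3L, between 16272909 and 16324308. Nplp1, a neuropeptide precursor, and CG4570 were also in the list, with mira, cas and CycE. Set against cells with nSyb instead of all other kept cells, only CG13066 and Nplp1 of the 10 remained called. CG13041 had 0 and 0 CPM in repo-positive cells at 24 h ALH and 0 and 15 CPM at stage 17, against 61.5 and 94.1 CPM and 11.7 and 581 CPM in other cells. The cluster holds similar neighbouring genes between which reads could be split, and CG13041 shares exon sequence on its strand with a noncoding RNA gene.

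Single cells showed that the glial genes did not all come from the same cells. Of the 95 repo-positive cells, 20 held Obp44a at 100 or more UMIs per 10000, a limit set after seeing the values. They were 5 of 13 and 9 of 19 cells at 24 h ALH, against 4 of 18 and 2 of 45 at stage 17. All 20 had UMIs of zyd and of Cyp4g15 and 19 had wrapper, whereas 4 had moody. Among the 75 other repo-positive cells, wrapper was found in 5, Cyp4g15 in 10, zyd in 32 and moody in 27. moody and wrapper were found together in 4 cells, although moody was in 31 and wrapper in 24.

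A second pattern was that of the surface. Among the cells below the Obp44a limit, 22 had at least 2 UMIs of moody and Mdr65 together. They were 1 and 6 at 24 h ALH and 7 and 8 at stage 17. None of them had wrapper, but the limit had already set aside 19 of the 24 cells with wrapper. Below it wrapper was in 0 and 0 cells at 24 h ALH and in 0 and 5 at stage 17. Its absence was thus largely fixed by the limit. A cell of 24 h ALH library 1 above the limit had 13 moody, 46 Mdr65 and 5 wrapper UMIs. Below the limit, 12 cells had at least 2 UMIs of Tret1-1 and CG6126, 3 and 5 at 24 h ALH and 2 and 2 at stage 17. Of these, 7 also belonged to the moody and Mdr65 cells. These counts are descriptions of cells within 4 libraries, and depth moves with them, since a cell of fewer UMIs shows fewer genes. The heat map of genes by cell shows both patterns side by side.

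**Figure D2:**
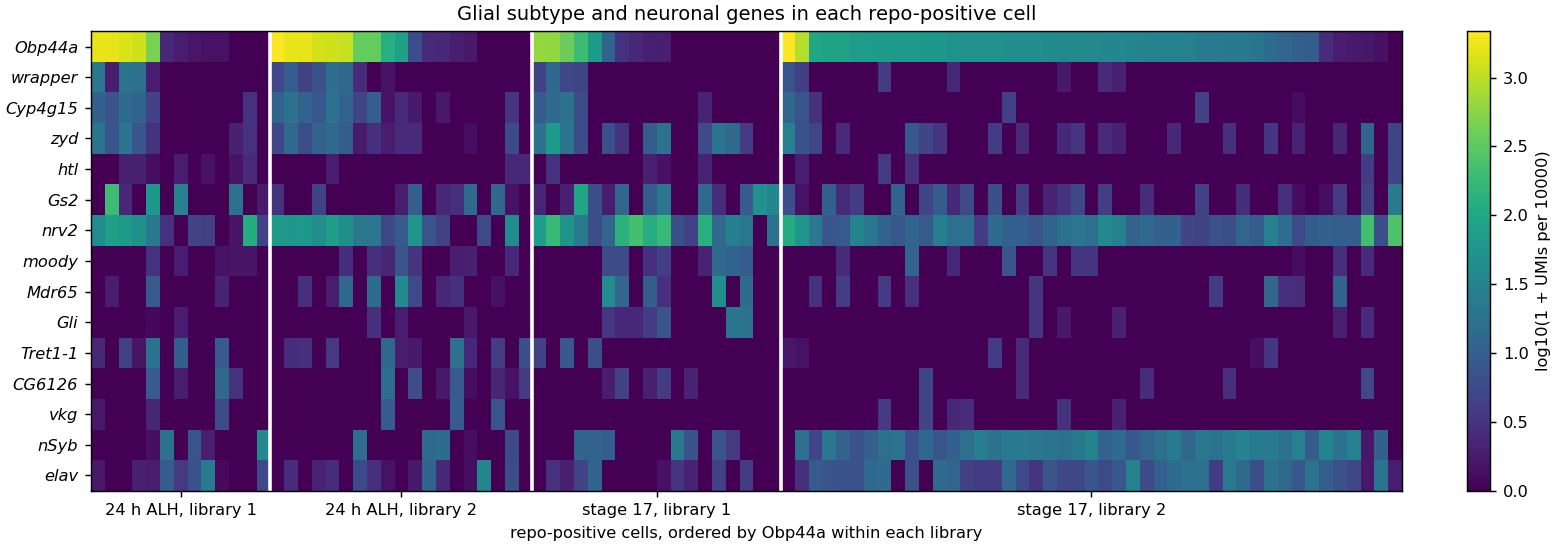
UMIs per 10000 (log10 of 1 plus the value, colour) of 15 genes in each of the 95 repo-positive cells (columns), ordered by Obp44a within each library. wrapper and Cyp4g15 follow the cells with most Obp44a, moody, Mdr65 and Gli lie mostly in other cells, and nSyb and elav fill stage 17 library 2.

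Neuronal RNA in the repo-positive cells was measured with 26 genes of neurons in general, such as nSyb, elav and nrv3. The list made up 116 and 72.3 UMIs per 10000 in repo-positive cells at 24 h ALH and 105 and 372 at stage 17. Cells with nSyb and without repo, dpn and wor held 280 and 265 at 24 h ALH and 348 and 423 at stage 17. Repo-positive cells thus reached 41.5% and 27.2% of the level of these cells at 24 h ALH, and 30.2% and 87.9% at stage 17. The stages overlapped, with means of 94.3 ± 31.2 at 24 h ALH and 239 ± 189 at stage 17 (SD, n = 2 each; two-sided exact permutation p = 0.667, of which the smallest possible is 0.333). Stage 17 library 2 alone stood above the rest. Muscle markers were also found in its repo-positive cells, 1 to 6 of them in a cell. In each of the other libraries a repo-positive cell had 1 to 3 of them. These are numbers of markers found and not RNA levels, and the range rests on 45 cells there against 13 to 19 in the others. At stage 17 the muscle genes had a median log2 fold change of -1.61 against other kept cells, with none called. The source of the neuronal excess in stage 17 library 2 was not tested.

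The level followed the number of repo UMIs. With at least 2 repo UMIs, the cells held 35.4 and 51.4 neuronal UMIs per 10000 at 24 h ALH, against 74.9 and 274 at stage 17 (two-sided exact permutation p = 0.333, n = 2 each). With exactly 1, they held 228 and 133 at 24 h ALH, against 172 and 420 at stage 17. The single cells spread widely, with a lowest, median and highest value of 1.93, 29.6 and 489 in 24 h ALH library 1 and of 0, 14.9 and 391 in library 2. The same values were 0, 27.7 and 394 in stage 17 library 1 and 10.8, 387 and 681 in stage 17 library 2. Fewer than 100 per 10000 were found in 10 of 13, 15 of 19 and 12 of 18 repo-positive cells of the first 3 libraries, but in 3 of 45 of stage 17 library 2.

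**Figure D3:**
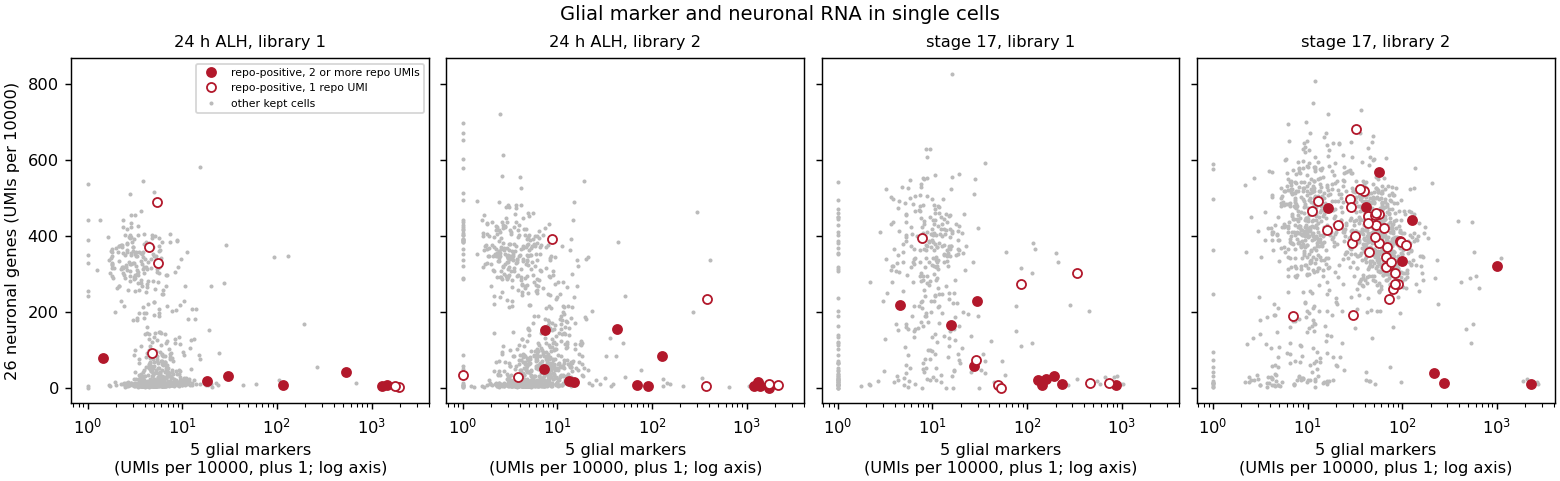
Neuronal RNA (UMIs of 26 genes per 10000) against the 5 glial markers (UMIs per 10000 plus 1, log axis) in each kept cell of each library; filled circles have 2 or more repo UMIs, open circles 1, and grey points are other kept cells. In 3 libraries most repo-positive cells lie at the bottom, and in stage 17 library 2 only 3 of 45 lie under 100.

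Of the 20 cells over the Obp44a limit, 17 held fewer than 100 neuronal UMIs per 10000. They were 5 of 5 and 8 of 9 at 24 h ALH, and 3 of 4 and 1 of 2 at stage 17. Of the 22 cells with moody and Mdr65, 11 did, 1 of 1 and 4 of 6 at 24 h ALH, and 5 of 7 and 1 of 8 at stage 17. Shares of cells with nSyb, each cell drawn down to 1000 UMIs, were 2 of 13 (15.4%) and 4 of 19 (21.1%) at 24 h ALH, against 4 of 17 (23.5%) and 37 of 45 (82.2%) at stage 17; 1 stage 17 cell was too shallow. With all UMIs they were 5 of 13 and 5 of 19 at 24 h ALH, against 7 of 18 and 43 of 45 at stage 17.

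As a level to read these against, cells with at least 3 tracheal markers and no repo, which should lack nSyb, were drawn down in the same way. nSyb was found in 1 of 10 (10.0%) and 8 of 28 (28.6%) of them at 24 h ALH and in 2 of 10 (20.0%) and 15 of 37 (40.5%) at stage 17, at median depths of 31910 and 8466 UMIs and of 8568 and 8332 UMIs. The exact 95% interval of the repo-positive share was 67.9 to 92% in stage 17 library 2, above the 24.8 to 57.9% of the tracheal cells. These intervals cover counting error among the cells of a single library, and 36 of its 45 repo-positive cells had only 1 repo UMI. In the other 3 libraries the repo-positive share lay within the interval of the tracheal cells, an interval that rests on 10 to 28 cells a library, so that no difference from the tracheal cells was detectable at this depth. Single cells varied, and in 24 h ALH library 1 the cells with 59, 50 and 23 nSyb UMIs held 372, 489 and 329 neuronal UMIs per 10000 and 3.41, 4.46 and 4.47 UMIs per 10000 of the 5 glial markers. NSC-like cells with dpn and wor held 17.4 and 16.3 neuronal UMIs per 10000 at 24 h ALH, against 148 and 245 at stage 17. Neuronal RNA in cells of other kinds was therefore higher at stage 17, and its part in the repo-positive values was not tested.

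**Figure D4:**
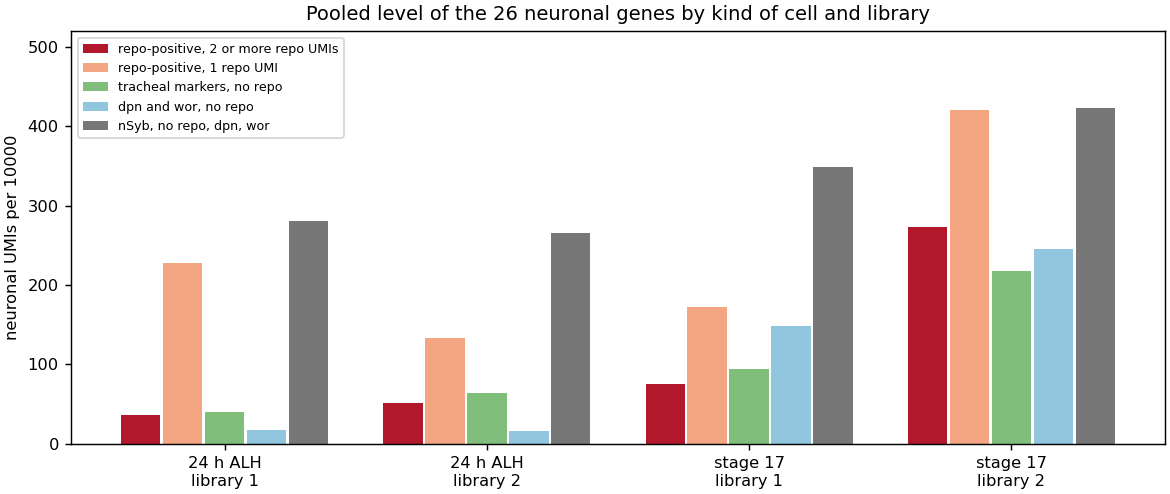
Pooled neuronal UMIs per 10000 (bars from 0) by kind of cell in each library, with no error bars since each bar is 1 pooled value. Repo-positive cells with 2 or more repo UMIs lie near the tracheal cells in every library (35.4 and 51.4 against 39.5 and 64.2 at 24 h ALH, 74.9 and 274 against 93.6 and 217 at stage 17), and those with 1 repo UMI lie higher.

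Over both stages, none of the 26 neuronal genes passed the test between repo-positive and other kept cells, and the median log2 fold change was -0.13 against -0.28 over all genes. The lowest adjusted p among the named ones was that of Fas2, an adhesion molecule of axons and glia (1.63 ± 0.69, edgeR adjusted p = 0.189), followed by elav (-0.56 ± 0.47, edgeR adjusted p = 0.481). At 24 h ALH alone the median of the 26 genes was 0.67, against -0.12 over all genes. There 2 of them, nrv3 and Fas2, were higher past the threshold, beside 772 of 7481 genes in all (10.3%). At stage 17 the median was -0.82, against -0.43 over all genes, and none of the 26 was called. The other kept cells differ in makeup between the stages, as given above for cells with dpn and wor.

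Whether repo-positive cells differed from other kept cells by another amount at 24 h ALH than at stage 17 was asked with an interaction term. At 24 h ALH, 772 of 7481 genes were higher in repo-positive cells (10.3%) and 244 lower (3.26%), and at stage 17, 185 were higher (2.47%) and 39 lower (0.521%). The difference itself passed the test for 185 genes in the positive direction (2.47%) and for 4 in the negative (0.0535%), 189 genes or 2.53% in all, and its median over all genes was 0.34 but -0.01 with upper-quartile scaling, under which 100 genes passed. Without stage 17 libraries 1 and 2 in turn 579 and 462 genes passed, and without 24 h ALH libraries 1 and 2 in turn 22 and 84. Obp44a differed by 7.08 at 24 h ALH against 3.08 at stage 17 (interaction 4.0 ± 0.60, edgeR adjusted p = 0.00944), and Gat by 4.82 against 1.79 (3.02 ± 0.73, edgeR adjusted p = 0.0435). The Gat call was lost with DESeq2 (adjusted p = 0.111), with upper-quartile scaling (edgeR adjusted p = 0.122), with no filter on low counts (edgeR adjusted p = 0.109) and without 24 h ALH library 1 or 2 (edgeR adjusted p = 1 and 0.610). The Obp44a call was lost with at least 2 repo UMIs (edgeR adjusted p = 0.293) and with a mitochondrial maximum of 10% (edgeR adjusted p = 0.0771). In the other kept cells Obp44a stood at 279 and 354 CPM at 24 h ALH against 604 and 2340 CPM at stage 17. Against cells with nSyb in place of all other kept cells, no gene passed (0 calls by edgeR, 466 genes at an unadjusted p under 0.05). DESeq2 was run on the main comparison only, where it gave 157 calls.

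Among the genes of the niche and haemocyte lists, SPARC, dally, ana, Col4a1 and vkg passed the interaction test, whereas trol did not (edgeR adjusted p = 0.0989). SPARC, a collagen-binding matrix protein, had 549 and 510 CPM in repo-positive cells at 24 h ALH and 13 and 15 CPM at stage 17, against 5.49 and 8.80 CPM and 16.7 and 21.8 CPM in other cells. Its difference from other cells was 6.25 at 24 h ALH and -0.49 at stage 17 (interaction 6.74 ± 0.71, edgeR adjusted p = 0.00086). The collagen IV genes Col4a1 and vkg had 271 and 541 CPM and 98.0 and 191 CPM in repo-positive cells at 24 h ALH, against 19.5 and 26.6 CPM and 0 and 13.3 CPM at stage 17. Both passed (5.91 ± 0.73 and 5.96 ± 0.99, edgeR adjusted p = 0.00134 and 0.00655). The RNA came from few cells. SPARC was found in 2 of 13 and 7 of 19 repo-positive cells at 24 h ALH, with 108 of the 168 UMIs of library 1 in a single cell, and Col4a1 in 3 and 6 cells.

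Haemocytes, the blood cells of the fly, also make collagen IV. The 10 haemocyte genes together held 3.63 and 6.84 UMIs per 10000 in repo-positive cells at 24 h ALH and 0.349 and 0.672 at stage 17, against 0.214 and 0.436 and 0.414 and 0.893 in other cells. Col4a1 and vkg are on this list and made up 91.1% and 92.2% of its UMIs in repo-positive cells at 24 h ALH. The 8 other genes held 0.322 and 0.535 UMIs per 10000 in repo-positive cells at 24 h ALH and 0.140 and 0.224 at stage 17, against 0.166 and 0.187 and 0.168 and 0.309 in other cells. Of these 8, 7 and 6 were at 0 in repo-positive cells at 24 h ALH and 7 and 5 at stage 17, He, NimC1, Pxn, eater and srp in every library. Whether haemocyte RNA took part in the collagen values was not tested. Tracheal genes held 0.0585 and 0.268 UMIs per 10000 at 24 h ALH and 0.209 and 1.34 at stage 17, below the other kept cells of each library.

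The 5 largest positive interactions under the naming rule were those of CG3348, CCAP (a neuropeptide), Gagr (a gene of retroviral gag origin), CG4462 and Indy (a citrate transporter). Indy had 111 and 155 CPM in repo-positive cells at 24 h ALH against 0 and 4.98 CPM at stage 17, and was found in 4 of 13 and 7 of 19 cells at 24 h ALH. CCAP came from a single cell of 24 h ALH library 2 with 84 UMIs, and without that library its sign turned (-1.98, edgeR adjusted p = 1). CG3348 had 109 and 48 UMIs in repo-positive cells at 24 h ALH and none at stage 17, so that its fitted interaction is no bound. The 4 negative ones were Lac and Fas3, adhesion proteins, Inx3, a gap junction innexin, and Hsp27, a small heat shock protein. Lac had 45.8 and 57.7 CPM in repo-positive cells at 24 h ALH and 821 and 113 CPM at stage 17, against 73.4 and 65.7 CPM and 79.8 and 38.5 CPM in other cells. Without either 24 h ALH library none of the 4 remained called.

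**Figure D5:**
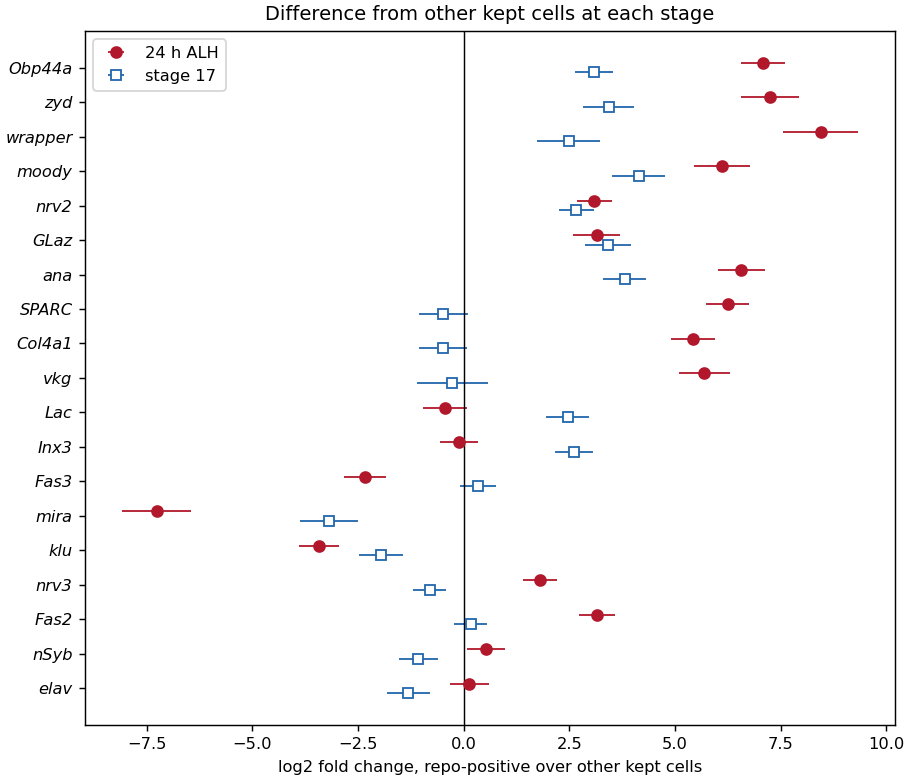
Log2 fold change of repo-positive over other kept cells at 24 h ALH (circles) and at stage 17 (squares) for 19 named genes, with bars of 1 SE from the edgeR fit. Glial genes lie right of 0 at both stages. SPARC, Col4a1 and vkg do so only at 24 h ALH, as do the neuronal genes nrv3, nSyb and elav. Lac, Inx3 and Fas3 do so only at stage 17.

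Repo-positive cells of the 2 stages were last compared directly. No gene of 3535 passed in edgeR (percent called 0), 785 had an unadjusted p under 0.05, and DESeq2 called 189. The correlation of log CPM across genes was 0.888 between the 24 h ALH sums and 0.711 between the stage 17 sums. With a library left out, 885 genes were called without stage 17 library 2 and 1996 without stage 17 library 1, against 25 and 6 without 24 h ALH libraries 1 and 2. In each of these fits a stage has 1 library, which is assumed to vary like the pair of the other stage. The lowest adjusted p in edgeR was 0.0568. CG4721 had 137 and 169 CPM at 24 h ALH against 16476 and 3454 CPM at stage 17 in repo-positive cells (log2 fold change -6.29 ± 0.83, edgeR adjusted p = 0.0568). In other kept cells CG4721 likewise stood at 1.19 and 1.18 CPM at 24 h ALH against 279 and 221 CPM at stage 17.

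Of 16 septate junction genes tested none passed the test between stages. All 16 had a negative log2 fold change, with a median of -2.36 against -0.11 over all genes, and 12 had an unadjusted p under 0.05. The list held 71.9 and 60.0 UMIs per 10000 in repo-positive cells at 24 h ALH against 244 and 143 at stage 17, and in other kept cells 16.1 and 19.8 against 52.9 and 84.7. sinu, a claudin, had 32.7 and 26.6 CPM at 24 h ALH against 391 and 66.4 CPM at stage 17 (-3.15 ± 0.94, edgeR adjusted p = 0.129). Neuronal genes also had lower values at 24 h ALH, with a median of -1.73 over 25 tested and none called. An unadjusted edgeR p under 0.05 was found for 6 of the 25, near the share over all genes, 785 of 3535. In repo-positive cells this list held 105 UMIs per 10000 in stage 17 library 1 and 372 in library 2, against 116 and 72.3 at 24 h ALH. Surface glia genes had a median of 1.41 over 7 tested, with none called and 3 at an unadjusted p under 0.05. Obp44a differed by 1.77 ± 0.33 (edgeR adjusted p = 0.0568) and nrv2 by -1.45 ± 0.50 (edgeR adjusted p = 0.162). Among repo-positive cells with neither nSyb nor elav, 4 and 7 at 24 h ALH against 7 and 1 at stage 17, the Obp44a difference was -1.04 (edgeR adjusted p = 0.746). The single cell of stage 17 library 2 held 3398 Obp44a UMIs among its 15690.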

How the data were processed

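GFP-positive cells were profiled by 10x Chromium 3′ sequencing in 4 libraries. The deposited counts were unnormalized UMIs for each gene in each cell barcode that Cell Ranger called (version 3 in the submitters' processing notes, 3.0.2 in the file headers), with dm6 as the build in the same notes. Groups and replicates were taken from the labels. The study's limits were applied to 4152 called cells, which left 3567. Doublets were called with Scrublet in scanpy 1.11.5 and were removed in an alternative only. The members and gene lists were chosen with earlier results of these data known, and the limits on Obp44a, surface genes, neuronal RNA and tracheal markers after seeing values. Sums of raw counts were tested with edgeR 4.0.16 (TMM scaling, filterByExpr, glmQLFit, Benjamini-Hochberg). Between kinds of cell the library was a block, and the stages were compared over 4 sums without one. DESeq2 1.42.0, other scaling, filters, cell rules, depth and left-out libraries were alternatives. Named genes were the 6 markers, up to 4 examples per list picked with values in view, and the 10 largest rises and falls (5 for the interaction) past the threshold with at least 100 CPM in the higher group and one direction in all libraries. Muscle, haemocyte, tracheal and epidermal genes could not enter by size. repo, dpn and wor were not tested. Gene positions came from the BDGP6 annotation. The sums over repo-positive cells held 342012 and 261589 UMIs at 24 h ALH and 143266 and 535379 at stage 17. On simulated data with changes of 2 on the log2 scale at these depths, 93 of 189 changed genes were recovered between kinds of cell (1 false call), 9 of 192 for the interaction and 0 of 173 between stages. No sequence was read and the authors' cell annotation was not used here.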

Additional observations from a re-analysis of the deposited data

Results flagged for a closer look

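By the interaction test in edgeR, the difference between repo-positive and other cells changed between the stages for 25 of the named or example genes. Over all genes 189 of 7481 passed (2.53%). The 5 largest positive and the 4 negative ones were named because they had passed this test, so the 25 are no independent count. Among cortex glia genes the difference was larger at 24 h ALH by 5.96 on the log2 scale for wrapper, 3.82 for zyd and 3.73 for Cyp4g15, and among markers by 4.0 for Obp44a and 3.02 for Gat. Among genes of the surface and the niche it was larger by 4.75 for CG6126, 6.74 for SPARC, 5.91 for Col4a1, 5.96 for vkg and 2.76 for ana, and for the lactate dehydrogenase gene ImpL3 by 2.80. Of the genes with the largest rises, CG3168 with 4.77, Vha36-3 with 4.61 and CG9686 with 4.28 were also among these. The largest values belonged to CG3348 with 13.83, CCAP with 10.77, Gagr with 8.88, CG4462 with 8.43 and Indy with 7.56, each of which was found in at most 3 repo-positive cells of either stage 17 library. Of neuronal genes, nrv3 with 2.61 and Fas2 with 2.99 passed. The difference was smaller at 24 h ALH for Lac with -2.90, Inx3 with -2.72, Fas3 with -2.68 and Hsp27 with -2.50. Against cells with nSyb no gene passed the interaction test in edgeR. A larger difference need not mean a higher level in repo-positive cells, since other kept cells also differed between the stages. Repo-positive cells had lower mean CPM at 24 h ALH for zyd (338 against 578), Gat (85.1 against 320) and nrv3 (2578 against 2953). The libraries overlapped for each. Means were higher for wrapper (277 against 73.6) and SPARC (530 against 14). Other cells had 1.92 and 2.56 CPM of zyd at 24 h ALH and 38.3 and 44.8 at stage 17.

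Cells over the mitochondrial limit were left out of every comparison, and some of them carried repo without dpn and wor. Among the cells with 200 to 6000 genes and more than 5% mitochondrial UMIs, these cells were 3 of 49 (6.12%, exact 95% binomial interval 1.28 to 16.9%) and 6 of 96 (6.25%, 2.33 to 13.1%) in the 24 h ALH libraries, and 9 of 68 (13.2%, 6.23 to 23.6%) and 23 of 345 (6.67%, 4.27 to 9.84%) in stage 17 libraries 1 and 2. Pooled, the shares were 6.21% at 24 h ALH and 7.75% at stage 17. Among kept cells they were 1.41% (0.752 to 2.40%) and 1.87% (1.13 to 2.91%) at 24 h ALH, and 4.40% (2.63 to 6.87%) and 3.69% (2.70 to 4.90%) at stage 17. The share over the limit was higher in 4 of 4 libraries, but the 2 intervals overlapped in each of them, and the difference was not tested. The 41 cells over the limit with repo held the 5 glial markers at 377 UMIs per 10000 at 24 h ALH and 220 at stage 17, against 14.6 and 44.5 in the cells over the limit without repo. Their neuronal RNA was 19.6 UMIs per 10000 at 24 h ALH and 75.4 at stage 17, below that of the kept repo-positive cells of each library of its stage. In stage 17 library 2 the 23 such cells held 79.2 neuronal UMIs per 10000 at a median of 23167 UMIs, against 372 in its kept repo-positive cells.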

How the results depend on the processing

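Between kinds of cell, 400 genes were called, against 983 with DESeq2, 1500 with no filter on low counts, 1403 with at least 2 repo UMIs, 206 with cells drawn to 1000 UMIs, 1011 with a mitochondrial maximum of 10%, 806 against cells with nSyb, and 13 with exactly 1 repo UMI, a setting added after seeing the data. Leaving out 1 library gave 23 to 722 calls. Against cells with nSyb, klu (0.52) and PCNA (1.57) reversed. Between stages, 0 genes were called, against 189 with DESeq2, 120 with upper-quartile factors, 556 with no filter, 2 with at least 2 repo UMIs, 343 with a mitochondrial maximum of 10%, and 6 to 1996 with 1 library left out, which leaves 1 library in a stage. With a replicate block 198 were called; libraries share only a number, with a correlation of -0.14 between the deviations of same-numbered libraries. Among single stage differences, Gs2 ranged from -1.05 to 2.67 and Gat from -3.08 to 0.55 with 1 library left out, Eaat1 was 0.032 with exactly 1 repo UMI, and Obp44a was -1.04 in cells without nSyb and elav, of which stage 17 library 2 had 1. For the interaction, 189 genes were called, against 100 with upper-quartile factors, 331 with no filter, 12 with cells drawn to 1000 UMIs, 543 with a mitochondrial maximum of 10%, 0 against cells with nSyb, and 22 to 579 with 1 library left out; CCAP ranged from -1.98 to 15.19. Upper-quartile factors moved the median of all genes from 0.34 to -0.01 for the interaction and from -0.11 to 0.18 between stages. Neuronal RNA of 24 h ALH library 1 was 35.4 UMIs per 10000 with at least 2 repo UMIs, and with exactly 1 it was 228 and 133 in the 24 h ALH libraries. The 6 markers with repo reached 532 UMIs per 10000 in 24 h ALH library 2 with cells drawn to 1000 UMIs, against 342. Repo-positive shares after drawing were 0.217% and 0.296% at 24 h ALH and 1.14% and 0.574% at stage 17, and with at least 2 repo UMIs 2.44% and 0.738% at stage 17.

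Depth limits the gate, since 57 of 95 repo-positive cells carried 1 repo UMI, 36 of them in stage 17 library 2. At 24 h ALH 19 of 32 carried 2 or more, as did 10 of 18 in stage 17 library 1. The 199 cells with 4 or 5 other markers and no repo UMI were counted among the other cells. With 2 libraries a stage and 13 to 45 cells a library, single cells decide low genes, and the simulated stage comparison recovered none of its changed genes.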
